A study of Mus musculus with 8 samples.

Results

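The Ly6 genes described here are 5 rows of a gene count table of mouse CD8+ T cells, namely Ly6a, Ly6c1, Ly6c2, Ly6e and Ly6i. They were chosen by gene symbol, as members of the Ly6 cluster of chromosome 15, and make up 5 of the 29426 genes in the table. Of the 5, 4 were among the 12313 genes with enough counts to be tested. Ly6i was not, and is given by its counts. RNA came from spleen CD8+ T cells, selected with magnetic beads and then split into subsets by a flow-cytometric sort on CD8, CD4, CD44 and CD122. Ly6 proteins were not among the stains named. The 8 libraries form 4 groups of 2, wild-type TN (WT-TN), wild-type MP (WT-MP), mCre TN (mCre-TN) and mCre MP (mCre-MP).

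The design text names the subsets TN and VM and the series title joins microRNA-29 with Cre. The allele carried by the mCre mice, its promoter, the strain, and the age behind each library (the protocol names adult or neonatal spleens) are not stated in the labels used here. Nor do they say whether the 2 libraries of a group came from separate mice, so p-values measure the spread between these libraries, which may be technical. With 2 libraries a group, groups can fail to overlap without a difference, and the share of all genes that do so is not given here. Statements on overlap below only describe the libraries. In bulk RNA, a larger fraction of cells carrying a transcript and more of it per cell cannot be told apart.

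Ly6 proteins are small cysteine-rich proteins of the Ly6/uPAR superfamily, held on the outer face of the plasma membrane by a glycosylphosphatidylinositol (GPI) anchor. Ly6a encodes Sca-1, a marker of blood stem cells that is also raised on T cells by activation and by interferons. Ly6c1 and Ly6c2 encode the Ly6C antigens, which mark inflammatory monocytes and memory CD8+ T cells, and Ly6e encodes an interferon-inducible protein that limits the entry of several viruses.

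On mouse build GRCm38, all 5 genes lie within 156.9 kb of chromosome 15. Ly6e is at chr15:74955051-74959905 on the plus strand. The others are on the minus strand, with Ly6i at chr15:74979534-74983430, Ly6a at chr15:74994877-74998031, Ly6c1 at chr15:75044018-75048830 and Ly6c2 at chr15:75108158-75111970. None of the 5 overlaps another annotated gene.

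The members other than Ly6e are close copies of each other, which bears on how reads are assigned to them. The coding sequences of Ly6c1 and Ly6c2 were identical at 92.8% of aligned bases, those of Ly6a and Ly6i at 86.4%, and Ly6e was the most distant, at 59.2% to 60.3% with each of the others. Of the 50-base stretches of annotated Ly6c1 transcripts, 21.5% also occurred in Ly6c2 and 11.1% in Ly6a, and 32.8% occurred in some other gene. The share found in another gene was 19.0% for Ly6a, 14.4% for Ly6c2, 4.76% for Ly6i and 0 for Ly6e. How the authors' counting treated reads that fit several genes is not stated in the labels used here, so the rows other than Ly6e could each hold reads of a neighbour.

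The RefSeq promoter table for GRCm38.p6 holds Ly6c1 and Ly6c2. Their sequences are shown because these closely related genes stood at very different levels. Each is the minus-strand sequence of the 250 bases before the first listed start, at chr15:75048838-75049087 for Ly6c1 and chr15:75111972-75112221 for Ly6c2. Capitals mark matches to the motifs searched.
Ly6c1: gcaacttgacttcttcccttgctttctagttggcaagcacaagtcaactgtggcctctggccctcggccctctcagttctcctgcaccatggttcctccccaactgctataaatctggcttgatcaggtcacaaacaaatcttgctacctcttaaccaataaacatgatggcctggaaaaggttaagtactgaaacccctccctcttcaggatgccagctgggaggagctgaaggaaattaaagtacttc
Ly6c2: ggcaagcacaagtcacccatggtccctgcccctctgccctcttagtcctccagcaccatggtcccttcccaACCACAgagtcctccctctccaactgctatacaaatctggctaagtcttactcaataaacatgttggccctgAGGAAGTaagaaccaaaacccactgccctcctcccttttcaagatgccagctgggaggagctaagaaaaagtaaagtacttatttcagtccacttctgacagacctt
The windows were identical at 164 of 216 aligned bases (75.9%), with 68 gap positions. Both strands were searched for TTCNNNGAA (the GAS site of STAT factors), AGGTGTGA and the GGTGTG within it (T-box factors), TGTGGT (RUNX factors), AGGAAGT (ETS factors), CTTTGAA (TCF and LEF factors) and AGATAA (bound by GATA factors). The Ly6c2 window held the RUNX letters, as ACCACA, 179 bases before the start, and the ETS letters 107 bases before it. The Ly6c1 window held none of these letters. Among all 32851 promoter windows of this length, 14% held the RUNX letters and 7.69% the ETS letters, so both are common. A second listed Ly6c1 start, further into the gene, had the ETS letters 126 bases and GGTGTG 112 bases before it. A second listed Ly6c2 start had the RUNX letters 213 bases and the ETS letters 141 and 7 bases before it. Such matches describe letters and not bound sites.

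Because microRNA-29 stands in the series title, the members' longest annotated 3′ UTRs were searched for its target letters. The mature sequences of the family, from RefSeq, share the seed shown in capitals (bases 2 to 8).
miR-29a-3p: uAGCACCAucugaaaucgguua
miR-29b-3p: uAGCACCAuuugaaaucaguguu
miR-29c-3p: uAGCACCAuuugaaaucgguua
The reverse complement of that seed, TGGTGCT, occurred in 0 of the 5 members' 3′ UTRs, against 1798 of 11689 tested genes with an annotated 3′ UTR (15.4%). With 5 genes, 0 is not far from that share. The members' 3′ UTRs were short, at 380 to 389 bases, except that of Ly6e at 1192 bases.

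Depth was 13479586 to 30057658 counted reads a library, with 14834 to 15722 genes detected, and replicate libraries differed by 4.13 to 6.12 times the variance that counting alone gives, so none was a copy of another. Levels are given as CPM (a gene's reads divided by the library's TMM-scaled total in megareads), and between genes as RPKM (CPM per kilobase of exon). All 4 CD8 T cell markers in the table were abundant, summing to 3840 to 4280 CPM. Summed neutrophil markers reached at most 3.17 CPM. Cd44, which was part of the sort, was called higher in MP in both genotypes.

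**Figure D1:**
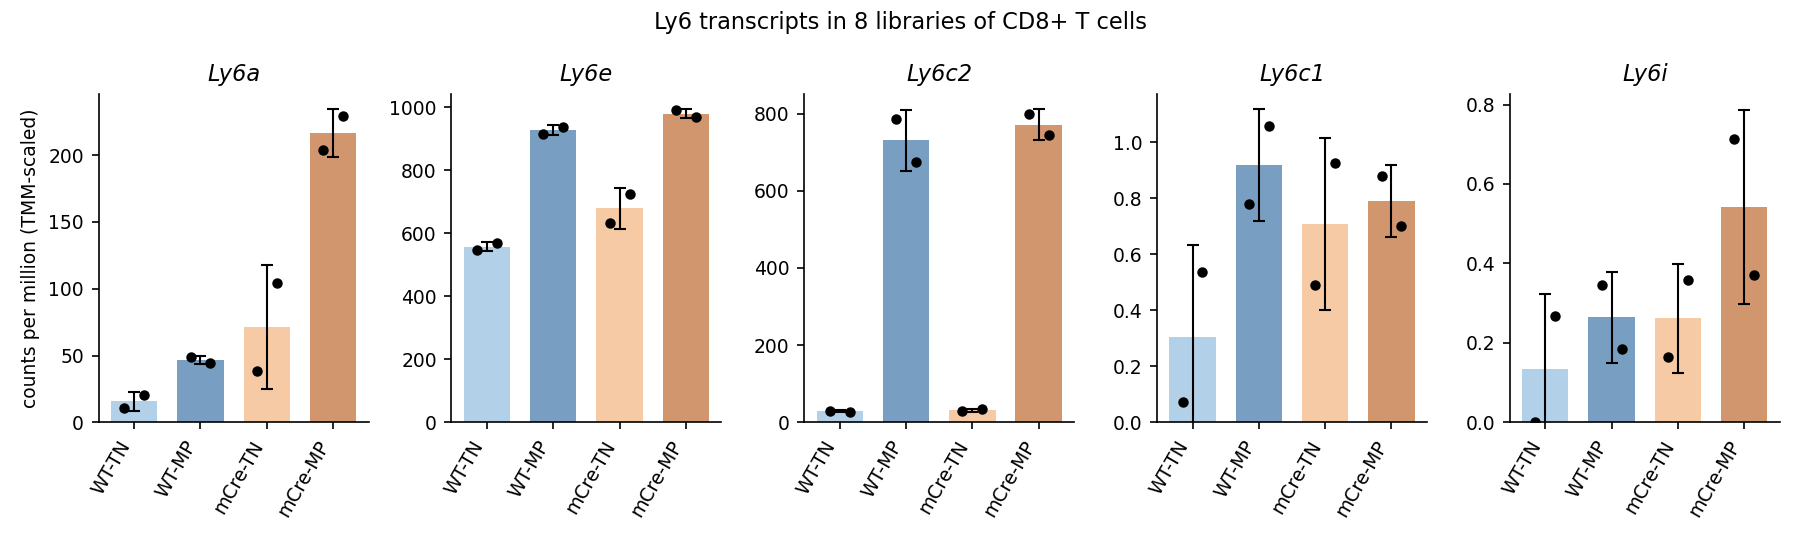
CPM (vertical axes, linear, each from 0) of the 5 Ly6 genes in the 4 groups. Points are libraries, bars the mean of 2 libraries and whiskers the SD. Ly6c2 separates MP from TN, Ly6a separates mCre from WT within each subset, and Ly6c1 and Ly6i stay at or below about 1 CPM.

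Per kilobase, Ly6e was the most abundant member in both TN groups, at 147.4 RPKM in WT-TN and 179.5 RPKM in mCre-TN. In MP, Ly6c2 stood beside it, at 266.6 RPKM against 245.0 RPKM for Ly6e in WT-MP and at 281.6 against 258.9 RPKM in mCre-MP. Ly6a came next in MP (38.59 RPKM in WT-MP and 179.6 RPKM in mCre-MP), and Ly6c1 and Ly6i stayed at or under 0.547 RPKM in every group mean. The lengths pool all annotated exons of a gene, at 3784 bases for Ly6e, 2740 for Ly6c2 and 1205 for Ly6a. This ranking therefore depends on the transcripts annotated. Summed over the 5 genes, WT-TN libraries held 588.3 and 618.0 CPM and mCre-TN libraries 700.6 and 864.7 CPM. The MP libraries held 1753 and 1658 CPM in WT and 1995 and 1943 CPM in mCre, all above every TN library. Ly6e supplied 83.9% to 93.0% of that sum in TN libraries and 49.6% to 56.6% in MP libraries, where Ly6c2 supplied most of the rest. These are shares of reads, not corrected for length.

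The first comparison asked how MP cells differ from TN cells. Ly6c2 rose about 25-fold in MP in both genotypes and Ly6e rose less, by 1.44 to 1.66-fold, whereas Ly6a and Ly6c1 had higher means in MP without passing the test. In WT, 2 of the 4 tested members were called (adjusted p under 0.05), against 31.7% of all tested genes. In mCre, 2 of 4 were called, against 32.5%. About 1 gene in 3 was called in either comparison, so the members' count is not far from the background.

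Ly6c2, one of the genes for the Ly6C antigen of memory CD8+ T cells, was at 30.45 and 27.61 CPM in the WT-TN libraries and at 787.0 and 674.2 CPM in WT-MP. In mCre it was at 28.54 and 33.92 CPM in TN and at 799.8 and 743.3 CPM in MP. Every MP library thus lay far above every TN library, while the genotypes overlapped. The log2 fold change was 4.66 (SE 0.11, a 25.3-fold rise) in WT with an adjusted p of 5.2e-10, and 4.64 (SE 0.106, 24.9-fold) in mCre with an adjusted p of 4.58e-10, by edgeR's quasi-likelihood test with Benjamini-Hochberg adjustment. Only 111 tested genes had a larger log2 fold change in WT and 106 in mCre.

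Ly6e, the interferon-inducible member, held 547.0 and 568.8 CPM in WT-TN libraries, against 916.2 and 937.8 CPM for WT-MP. In mCre it was at 633.1 and 725.1 CPM in TN and 989.7 and 969.9 CPM in MP. The subsets did not overlap in either genotype. Its log2 fold change was 0.73 (SE 0.0568) in WT, with an adjusted p of 5.61e-09, and 0.53 (SE 0.0564) in mCre, with an adjusted p of 4.88e-07, by the same edgeR test.

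Ly6a was at 10.79 and 20.79 CPM in WT-TN libraries and at 48.53 and 44.48 CPM in their MP counterparts. In mCre it was at 38.29 and 104.4 CPM in TN and at 203.8 and 229.1 CPM in MP. No TN library reached the MP libraries of its own genotype, but the 2 TN libraries of a group differed from each other by 1.93 times in WT and 2.73 times in mCre, against 1.09 and 1.12 times in MP. The log2 fold change of MP against TN was 1.51 (SE 0.688, adjusted p = 0.192) in WT and 1.64 (SE 0.522, adjusted p = 0.0856) in mCre by edgeR's quasi-likelihood test. Neither passed. DESeq2 called both, with adjusted p of 0.0307 in WT and 0.0245 in mCre, as did edgeR without its robust dispersion step, at 0.0107 and 0.000916. In WT the edgeR call was also made without mCre-TN library 1 (0.0423) or mCre-TN library 2 (0.041), and in mCre without mCre-TN library 2 (0.0142). Voom called it in mCre (0.0492). The log2 fold change in mCre was 1.04 without mCre-TN library 1 and 2.50 without mCre-TN library 2.

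Ly6c1 had 1 and 10 counts in WT-TN, then 18 and 23 in WT-MP, against 15 and 18 in mCre-TN and then 16 and 17 in mCre-MP. At this depth its log2 fold change, 1.43 in WT (SE 0.622, adjusted p = 0.0896 by edgeR) and 0.20 in mCre (adjusted p = 0.807), did not pass. Leaving out WT-TN library 2 made the WT change 3.53 (adjusted p = 0.0217), on the single count of the library that remained. Of the reads given to Ly6c1 and Ly6c2 together, Ly6c2 took 97.35% (exact Clopper-Pearson 95% interval 95.84% to 98.42%, counting error only) in the lowest library, mCre-TN 2, and 99.91% (99.85% to 99.95%) in the highest, mCre-MP 2. The remaining share, given to Ly6c1, was larger in mCre-TN 2 than in any MP library, on few reads. With both rows summed before the fit, the log2 fold change was 4.64 in WT and 4.61 in mCre. Ly6c1 held so few of these reads that the sum could differ little from the Ly6c2 row. Nor does the sum recover reads that fit both genes, if the counting left them out.

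Ly6i had 0 and 5 counts in WT-TN, then 8 and 4 in WT-MP, against 5 and 7 in mCre-TN and then 13 and 9 in mCre-MP. The library with 0 allows a level of up to 0.222 CPM. These counts did not reach the filter. With no expression filter edgeR gave log2 fold changes of 0.81 (adjusted p = 0.71) for MP against TN in WT, 1.09 (0.397) in mCre, and 0.87 (0.508) for mCre against WT over both subsets.

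**Figure D2:**
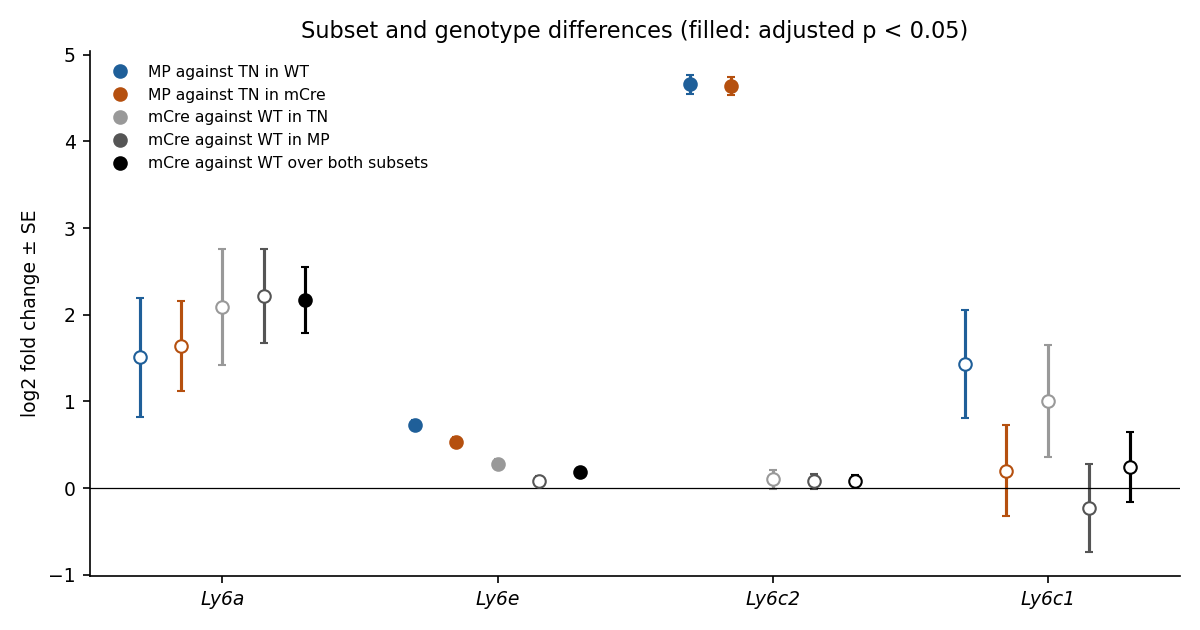
Log2 fold change (vertical axis) of the 4 tested Ly6 genes in 5 comparisons, with SE from edgeR. Filled points passed an adjusted p of 0.05. Ly6c2 is above 4.6 in both subset comparisons and near 0 in the genotype comparisons, and Ly6a is near 2 in each genotype comparison with wide errors.

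The second comparison set mCre against WT. Over both subsets Ly6a was 4.50-fold and Ly6e 1.13-fold higher in mCre than in WT, while Ly6c2 and Ly6c1 did not pass the test. Every mCre library had more Ly6a than every WT library of the same subset. Over both subsets, with subset as a term in the fit, 2 of the 4 tested members were called, against 11% of all tested genes. Within TN, 1 of 4 was called (background 3.47%), and within MP 0 of 4 (background 4.04%), where 1, Ly6a, had an unadjusted p under 0.05 and DESeq2 called 1. With 4 genes, these counts say little beyond the genes themselves.

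Ly6a averaged 15.79 ± 7.07 CPM in WT-TN and 71.37 ± 46.8 CPM in mCre-TN, and 46.50 ± 2.87 CPM in WT-MP and 216.4 ± 17.9 CPM in mCre-MP (SD, n = 2 each). Over both subsets its log2 fold change was 2.17 (SE 0.379, 4.50-fold, adjusted p = 0.0264 by edgeR's quasi-likelihood test), and 10 tested genes had a larger one. Set against Ly6e within the same library, there were 1.97 and 3.65 Ly6a reads per 100 Ly6e reads in WT-TN and 6.05 and 14.4 in mCre-TN. There were 5.30 and 4.74 in WT-MP and 20.6 and 23.6 in mCre-MP. By this ratio too, both mCre libraries of a subset lay above both WT libraries of that subset.

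Within a single subset the Ly6a difference was as large but did not pass. It was 2.09 in TN (SE 0.667, adjusted p = 0.238) and 2.22 in MP (SE 0.541, adjusted p = 0.15) by the same edgeR test. In TN it was 1.23 without mCre-TN library 2 and was 2.68 without mCre-TN library 1. DESeq2 called Ly6a in TN (0.00848) and in MP (0.00652), edgeR without the robust step called it in TN (0.0105) and MP (0.00132), and edgeR fitted to the MP libraries alone called it in MP (1.93e-11). Fitted to the TN libraries alone, edgeR did not call it (0.48). Voom called it neither in TN (0.398) nor in MP (0.133). Leaving out mCre-TN library 1 or 2 also led to a call in MP, at 0.041 and 0.04. The call over both subsets was lost when any 1 of the 6 libraries outside mCre-TN was left out, with adjusted p from 0.0626 to 0.0988. Its log2 fold change stayed between 1.93 and 2.36 over all 8 omissions.

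Ly6e differed by 0.28 on the log2 scale in TN (SE 0.0567, adjusted p = 0.00775) and by 0.08 in MP (adjusted p = 0.516), and by 0.18 over both subsets (SE 0.0471, adjusted p = 0.0208), in the same edgeR fits. The groups did not overlap in TN or in MP, although the MP difference did not pass the test. The TN call was lost without WT-TN library 1 (0.0578) or mCre-TN library 2 (0.17). The call over both subsets was lost without WT-TN library 1 (0.0721), WT-TN library 2 (0.116), WT-MP library 1 (0.0622) or mCre-TN library 2 (0.0718). Ly6c2 differed by 0.10 in TN (adjusted p = 0.72) and 0.08 in MP (adjusted p = 0.728), with overlapping libraries, and Ly6c1 by 1.00 in TN (0.461) and −0.23 in MP (0.876). The Ly6c1 value in TN was 0.33 without WT-TN library 1 and 3.099 without WT-TN library 2. Leaving out mCre-TN library 2 turned the Ly6c2 value in TN to −0.02, and leaving out WT-MP library 2 turned that in MP to −0.04.

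Whether the MP-TN difference itself depended on genotype was tested as an interaction. 0 of the 4 tested members were called, against 0.13% of all tested genes. The interaction was 0.13 (SE 0.878, adjusted p = 1) for Ly6a, −0.02 (adjusted p = 1) for Ly6c2, −1.23 (0.934) for Ly6c1 and −0.20 for Ly6e (SE 0.0798, unadjusted p = 0.0201, adjusted p = 0.729), in edgeR's quasi-likelihood test. Ly6e was the 1 member with an unadjusted p under 0.05. The Ly6a interaction ranged from −0.47 (without mCre-TN library 1 or WT-TN library 2) to 0.99, and that of Ly6c1 from −3.33 (without WT-TN library 2) to −0.56 (without WT-TN library 1). DESeq2 and voom also called 0 members.

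Levels of other cells' markers were read beside these results. Of all tested genes, 31.7% were called with MP in WT, 32.5% in mCre and 11% between genotypes over both subsets. In MP, 6 of 6 NK cell markers rose in both genotypes. They summed to 359 to 393 CPM in TN and 716 to 748 CPM in MP, and their most specific members, Ncr1, Klrb1c and Klra8, had 0 counts in TN and at most 2.42 CPM in an MP group mean. Ccr2, a chemokine receptor of monocytes and memory T cells, was the 1 of 7 tested monocyte and macrophage markers that rose with MP. In WT, Cd22 rose with MP (5.03, adjusted p = 1.23e-08 in edgeR's fit), the 1 called of 4 tested B cell markers. Itgax rose too (4.65, 9.17e-15), the 1 called of 5 tested conventional dendritic cell markers. Of 4 tested CD4 and regulatory T cell markers, 2 rose with MP in WT, Zbtb7b (3.71, 1.37e-11) and Ctla4 (1.97, 0.0094). The other 2 fell, Cd40lg (−2.33, 4.25e-07) and Foxp3 (−1.48, 0.0127). Ms4a1 and Cd4 did not reach the count filter. Between genotypes, Csf1r (log2 fold change −1.32, adjusted p = 0.0021) and Adgre1 (−1.16, adjusted p = 0.0301), both macrophage markers, were lower in mCre over both subsets by edgeR, while Ly6a was higher. Hba-a1, an alpha-globin gene, was higher in mCre (0.60, adjusted p = 0.0299), and the erythroid and platelet list summed to 11.2 to 19.3 CPM in WT and 20.7 to 52.2 CPM in mCre libraries. Of the stem cell and stromal list, whose cells can carry Sca-1, Pecam1 was higher in mCre over both subsets (0.21, adjusted p = 0.00147). Kit, a stem cell receptor, was higher in mCre within MP (1.57, adjusted p = 0.0296, edgeR) and rose with MP in mCre (1.58, adjusted p = 0.00377), at group means of 0.827 to 2.68 CPM, and its value within TN was −0.72 (adjusted p = 0.418). The list summed to 195 to 207 CPM in WT-TN, 213 to 236 CPM in mCre-TN, 113 to 117 CPM in WT-MP and 138 to 142 CPM in mCre-MP. The other 2 tested genes of this list fell with MP in mCre, Pecam1 (−0.70, adjusted p = 8.3e-09, edgeR) and Col1a1 (−2.025, 0.0186). Cd34 and Pdgfra did not reach the count filter. Of 4 tested plasmacytoid dendritic cell markers, 3 were higher in mCre (Bst2, Tcf4 and Ly6d), and Siglech, the defining one, averaged at most 0.185 CPM in any group. The part of these markers in the Ly6 results was not tested.

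Other Ly6/uPAR genes of the same cluster were mostly silent. Of 17 in the table, 10 had no count in any library and 4 were tested. The highest of these in mCre-MP was 2010109I03Rik, listed in RefSeq as Ly6m, with 0 and 0 counts in WT-TN, then 27 and 22 in WT-MP, against 17 and 14 in mCre-TN and then 61 and 40 in mCre-MP. It was undetected in WT-TN and present in each other library. Against the level that 3 counts over both WT-TN libraries would give, it was at least 11.7-fold higher in WT-MP and at least 6.64-fold higher in mCre-TN. In mCre it rose from TN to MP by 1.96 (adjusted p = 0.00154), and it was higher in mCre over both subsets, with a fitted log2 fold change of 1.61 (adjusted p = 0.0266, edgeR) that depends on the prior count.

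Ly6d, a lymphoid progenitor marker, had 3 and 5 counts in WT-TN, then 2 and 1 in WT-MP, against 21 and 17 in mCre-TN and then 5 and 5 in mCre-MP. It was higher in mCre over both subsets (1.65, adjusted p = 0.0395 by edgeR) at a very low level, with no mCre library of a subset reaching down to a WT one. Lynx1, a modulator of nicotinic receptors, fell in MP, with a log2 fold change of −2.30 in WT (adjusted p = 0.000323) and −2.11 in mCre (adjusted p = 0.000778). Ly6k fell with MP in mCre by 3.62 (adjusted p = 0.0103). In WT its value was −1.81 (adjusted p = 0.125), and the interaction did not pass (adjusted p = 0.959, edgeR).

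Among all 27 other genes in the table within 500 kb of the members, 9 were tested. In MP against TN, 2 were called higher and 1 lower in WT, and 2 higher and 3 lower in mCre. Of all tested genes, 31.7% were called in WT, 32.5% in mCre and 11% between genotypes over both subsets. The genotype comparison over both subsets called 2 higher (Ly6d and 2010109I03Rik) and 1 lower (Them6, −0.19, adjusted p = 0.0198). Gm39556, a lincRNA between Ly6e and 2010109I03Rik, rose with MP by 2.31 in WT and 1.88 in mCre. Gm28068, the 1 tested non-member within the members' span, was called in no comparison. The genes of this stretch differed in which comparison, if any, called them. With 9 neighbours tested, these counts say little beyond the genes themselves.

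**Figure D3:**
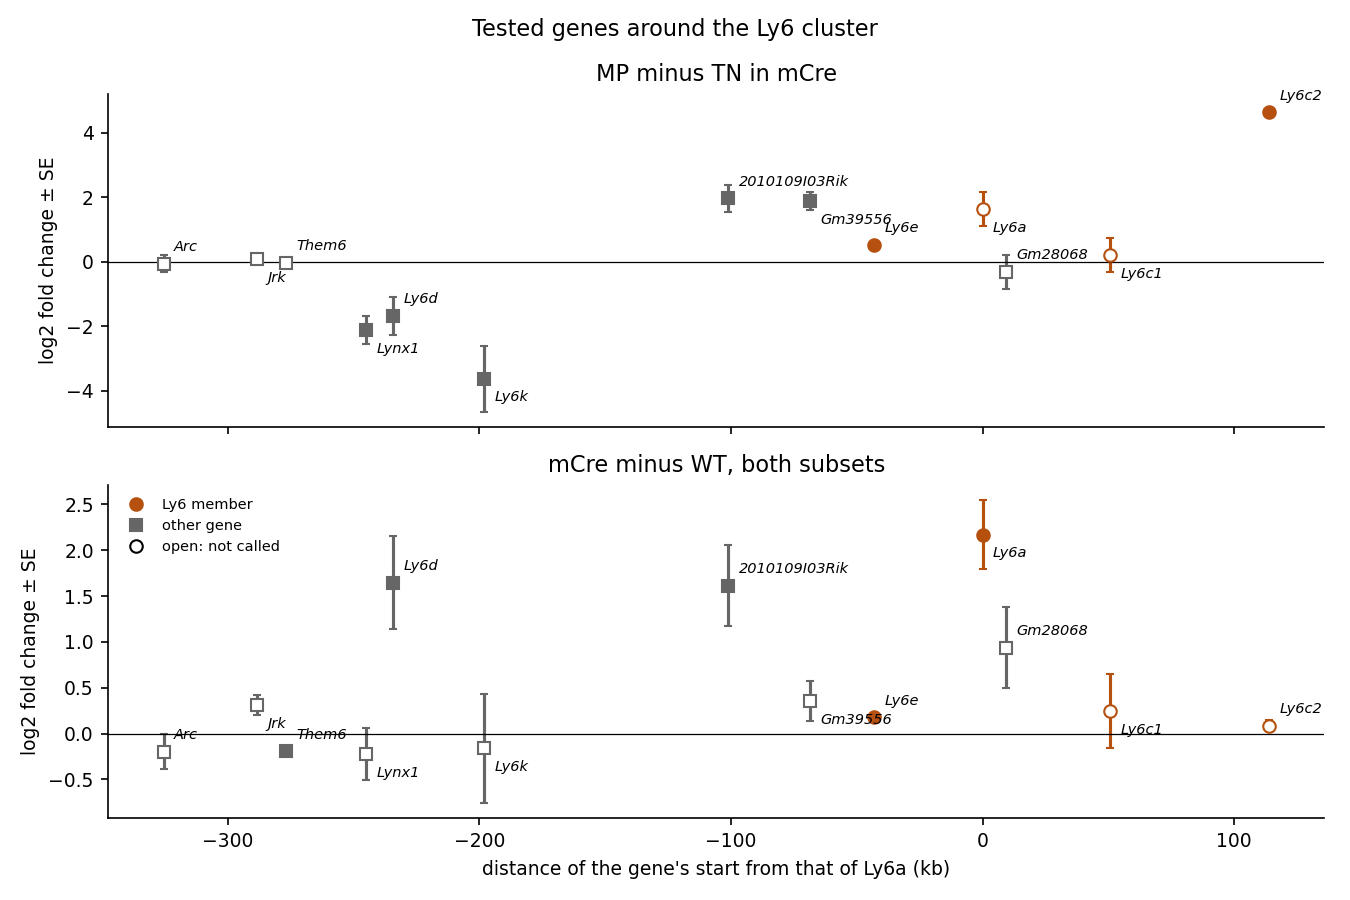
Log2 fold change with SE (vertical axes; upper panel MP against TN in mCre, lower panel mCre against WT over both subsets) of the 13 tested genes within 500 kb of the Ly6 members, against distance in kb from the start of Ly6a. Circles are members, squares other genes, and filled symbols passed an adjusted p of 0.05. Of the plotted values, Ly6c2 has the highest in the upper panel and Ly6a in the lower panel.

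Ly6/uPAR genes elsewhere in the genome numbered 22 in the table and 3 were tested. In both genotypes 2 fell with MP and 0 rose. Of all tested genes, 15.6% were called lower in MP in WT and 15.5% in mCre. Plaur, the urokinase receptor, fell by 4.75 in WT (adjusted p = 0.000179) and by 2.87 in mCre (adjusted p = 0.000733) in edgeR's fit, from 16.5 and 14.9 CPM for WT-TN to 0.864 and 0.276 CPM in WT-MP. Lypd6b fell by 0.78 in WT and 0.82 in mCre. These 2 genes thus fell where Ly6c2 and Ly6e rose. Over both subsets, 0 of the 3 were called between genotypes, where 11% of all tested genes were called. With 3 genes tested, these counts say little beyond the genes themselves.

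Other GPI-anchored proteins of lymphocytes were split. Of 16 tested, 7 rose and 3 fell with MP in WT (median log2 fold change 0.28, against −0.00188 over all genes), and 7 rose and 2 fell in mCre. Of all tested genes, 31.7% were called in WT and 32.5% in mCre. Nt5e, the ectoenzyme CD73, rose by 1.76 in WT (adjusted p = 1.08e-06), Cd160 rose by 1.41 (6.51e-11) and Izumo1r, a folate receptor relative, fell by 1.31 (1.94e-07). Over both subsets 2 were higher and 3 lower in mCre, where 11% of all tested genes were called. Thy1, the pan-T cell antigen, was at 1020 and 1050 CPM in WT-TN and 1350 and 1280 CPM in mCre-TN, and at 1180 and 1150 CPM in WT-MP and 1570 and 1560 CPM in mCre-MP. It was higher in every mCre library, by 0.39 on the log2 scale (adjusted p = 1.32e-07, edgeR). Cd55, a complement inhibitor, was lower by 0.21 (−0.21, adjusted p = 0.0125).

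Genes that build the GPI anchor were measured beside the anchored proteins. Of 19 genes of anchor synthesis, 2 rose and 1 fell with MP in WT and 1 rose in mCre. Of all tested genes, 31.7% and 32.5% were called there. In WT, Pigc was at 0.35 (adjusted p = 0.0184), Pigm at 0.14 (0.0449) and Pigx at −0.23 (0.0312). Over both subsets 2 were higher and 1 lower in mCre, where 11% of all tested genes were called, and Piga, a subunit of the enzyme for the first step, was higher by 0.45 (adjusted p = 3.31e-06) and Pigm by 0.18 (0.00544). Of 11 genes of anchor transfer and remodelling, 4 rose and 1 fell with MP in each genotype, against 31.7% of all genes called in WT and 32.5% in mCre. Tmem8 rose by 0.47 (0.00014) and Mppe1 by 0.24 (0.0143) in WT, Pgap1 fell by 0.47 (0.00059), and 0 of the 11 were called between genotypes. These adjusted p are from the same edgeR fit.

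Receptors and transducers of interferon, to which Ly6a and Ly6e are known to respond, were measured beside them. Of 15 tested, 5 rose and 2 fell with MP in WT, and 4 rose and 2 fell in mCre. Of all tested genes, 31.7% were called in WT and 32.5% in mCre. Ifngr1, the ligand-binding chain of the interferon-gamma receptor, rose by 1.17 in WT (adjusted p = 2.49e-12), and Ifnar2 by 0.73 (1.21e-08). Ifngr2, the partner chain of Ifngr1, fell by 4.10 (−4.10, adjusted p = 1.12e-10 in edgeR), from 39.7 to 2.32 CPM in group means. Between genotypes, over both subsets, 3 were higher and 1 lower in mCre, where 11% of all tested genes were called. Irf9 (0.39, 7.04e-05) and Stat2 (0.32, 7.05e-05), subunits of the complex that relays type I interferon, were higher, and Ifngr1 was lower (−0.24, 0.000416).

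A reference list of 22 other interferon-induced genes was higher in mCre as Ly6a was. The list, chosen with earlier results of these data known, held 17 genes higher and 0 lower over both subsets (median log2 fold change 0.97, against −0.000437 over all genes). Of all tested genes, 5.06% were called higher and 5.97% lower over both subsets. Within TN, 5 of the list were higher and within MP 9, with 0 lower in each. The shares of all tested genes called there, in either direction, were 3.47% and 4.04%. Rtp4, a chaperone of receptors, was higher by 1.13 (adjusted p = 1.87e-07, edgeR) and Isg20, an exonuclease, by 1.00 (7.48e-05). With MP, 6 rose and 1 fell in WT and 8 rose in mCre. That is not far from the 31.7% and 32.5% of all tested genes called. Mx1, an antiviral GTPase, rose with MP by 3.25 in WT (0.00213), and Ifit2 by 0.93 (1.92e-05).

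The mean log2 CPM of the 22 genes was 4.28 and 4.46 in WT-TN, then 4.87 and 4.78 in WT-MP, against 5.26 and 5.29 in mCre-TN and then 6.01 and 5.65 in mCre-MP. Like Ly6a, it was higher in every mCre library than in every WT library of the same subset. The mCre-TN libraries, which differed by 2.73 times in Ly6a, were almost equal by this mean, and differed more by the summed level, at 1990 and 2530 CPM. The list's sum in WT-TN was 1520 and 1790 CPM, and there too the second library had more Ly6a. In MP the order by the sum was the opposite. The sums were 1630 and 1700 CPM in WT-MP and 2500 and 2330 CPM in mCre-MP, and in each pair the library with the larger sum had less Ly6a. By the mean, WT-MP had the same order as Ly6a and only mCre-MP the opposite, so the order depends on the measure. Whether interferon bears on Ly6a was not tested. Ly6e and Ly6c2 sat low among these genes in both genotype comparisons.

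**Figure D4:**
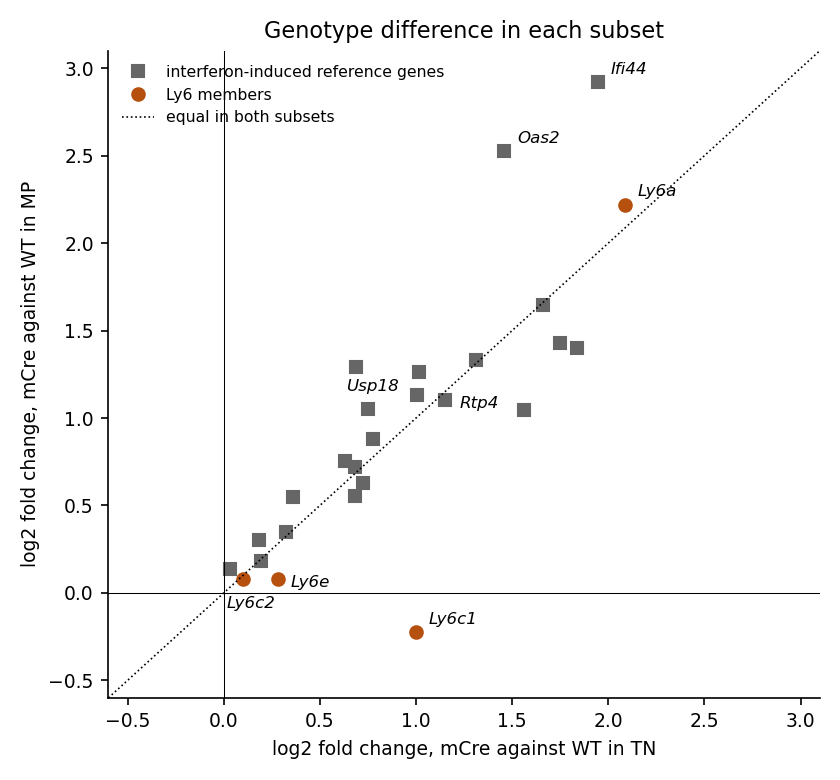
Log2 fold change of mCre against WT in MP (vertical axis) against that in TN (horizontal axis) for the 4 tested Ly6 genes (circles) and 22 interferon-induced genes (squares). The dotted line marks equal values. Ly6a lies near that line at 2.09 and 2.22, Ly6e and Ly6c2 lie near the origin, and Ly6c1 rests on at most 23 counts a library.

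Regulators and surface markers of memory-phenotype CD8+ cells framed the subset result. Of 15 factors, 7 rose and 7 fell with MP in WT and 6 rose and 7 fell in mCre. Of all tested genes, 31.7% were called in WT and 32.5% in mCre. Bhlhe40 rose by 4.86 (adjusted p = 7.94e-12), Tbx21, which encodes T-bet, by 4.13 (2.26e-10) and Myb by 1.93 (1.19e-09) in WT. Of 12 surface markers, 5 rose and 4 fell in each genotype, among them Cxcr3, a chemokine receptor, at 3.96 (6.96e-13) and Cd5 at −0.92 (2.54e-11) in edgeR's fit. The log2 fold change of Ly6c2 (4.66) lay between those of Tbx21 and Bhlhe40. Between genotypes, over both subsets, 3 of the 15 factors were higher in mCre, where 11% of all tested genes were called. Among them were Runx3 (0.19, 0.00857) and Stat5a (0.15, 0.00982), both by edgeR.

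The genes whose profile was most like each member were ranked by Pearson correlation of log2 CPM over the 8 libraries, among 8442 candidates. The libraries share the 4 groups, so high values are usual, and these are descriptions. For Ly6c2 the 3 highest were Plek, Ano10 and Slamf7, each at 0.998, and the lowest was Rflnb at −0.997. Plek, a platelet and leukocyte kinase substrate, went from a mean of 2.59 CPM to 171 CPM between the WT subsets. For Ly6e they were Tspan31 (0.993), Apobec3 (0.993) and Arl5a (0.992), with Ubn1 lowest at −0.997. Apobec3, an antiviral cytidine deaminase, averaged 165 CPM (WT) and 202 CPM (mCre) in TN and 276 CPM (WT) and 318 CPM (mCre) in MP, the same order of groups as Ly6e.

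For Ly6a they were Vwa5a (0.995), Adam19 (0.992) and Nampt (0.984), with Nrros lowest at −0.993. Vwa5a averaged 27.4 ± 2.58 CPM (WT) and 45.1 ± 10.2 CPM (mCre) in TN, and 42.2 ± 0.0262 and 65.6 ± 1.65 CPM in MP (SD, n = 2). It had the group order and the wide mCre-TN pair of Ly6a. These genes were chosen by likeness to Ly6a over the same libraries, so such sharing follows from the choice. Adam19, a membrane metalloprotease, and Nampt, an enzyme of NAD synthesis, were also higher in mCre over both subsets, by 0.30 (adjusted p = 0.000169) and 0.40 (0.0123) in edgeR. For Ly6c1 they were Atp5k (0.970), Slc39a1 (0.960) and Nudt7 (0.951), with Dnmbp at −0.963, and none of these 4 was called in any comparison. Between members the correlation was 0.947 for Ly6c2 and Ly6e, 0.794 for Ly6a and Ly6e and 0.610 for Ly6a and Ly6c2.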

How the data were processed

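RNA of 8 libraries in 4 groups of 2 was analysed from 1 table of counts that the authors deposited, whole numbers of reads per gene symbol. The submitters' processing notes name Trim Galore, HISAT2, featureCounts and build mm10. Versions, annotation, strand setting and multi-mapping are not stated in the labels used here.

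Genes were filtered with filterByExpr (12313 of 29426 kept), scaled by TMM and tested in edgeR 4.0.16 (R 4.3.3) by the robust quasi-likelihood F test, two-sided, over all 8 libraries with 1 mean per group (genotype plus subset for the comparison over both subsets), adjusted by Benjamini-Hochberg over all tested genes and called at 0.05. SE is the log2 fold change over the square root of F. The fit was tested on simulated data. CPM uses TMM-scaled totals, RPKM adds annotated exon length, and log2 CPM adds a prior count (2). Alternatives were DESeq2 1.42.0, voom in limma 3.58.1, other scalings and filters, no robust step, only the compared groups, the replicate number as a block, Ly6c1 and Ly6c2 summed, and leaving out each library.

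The members and lists were chosen with earlier results of these data known. All members are named. From each list, up to 3 genes by p in MP against TN in WT and up to 2 by p in mCre against WT over both subsets are named. For likeness, the 3 highest and the lowest correlation were taken among genes with a mean log2 CPM of at least 3, without members, Gm or Rik names, pseudogenes and antigen receptor segments. Named beyond these rules, after their values were seen, are markers of other cells, Cd44 and neighbouring genes. Sequence motifs were also chosen then.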

Additional observations from a re-analysis of the deposited data

How the results depend on the processing

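Of the members' recomputed values, 362 kept direction and side of the threshold, 16 passed only in the alternative and 12 no longer passed. The other 10, none called, changed sign with 1 library left out: Ly6c1 in MP against TN in mCre (−0.25 to 0.66) and in mCre against WT over both subsets (−0.0380 to 0.492), Ly6c2 in mCre against WT in TN (−0.0197 to 0.236) and MP (−0.0372 to 0.183), and the interactions of Ly6c2 (−0.163 to 0.0932) and Ly6a (−0.47 to 0.99). Of the main counts (427 genes in TN, 498 in MP, 1358 over both subsets, 16 for the interaction), no expression filter gave 783, 888 and 81 for TN, MP and the interaction, and the interaction count was 26 with DESeq2, 7 with voom and 8 without the robust step. Leaving out 1 library gave 191 to 440 genes in TN (fewest without WT-TN library 2, and 200 without mCre-TN library 2), 188 to 577 in MP (188 without WT-MP library 2, 256 without WT-MP library 1, 251 without mCre-MP library 2, 296 without mCre-MP library 1), 863 to 1191 over both subsets (863 without WT-MP library 2) and 9 to 29 for the interaction. Members called between genotypes in TN were 2 with DESeq2 or without the robust step and 0 to 1 with 1 library left out; in MP they were 1 with DESeq2, without the robust step or with only the groups compared, and 0 to 1 with 1 left out; over both subsets they were 0 to 2. The causes were not tested. Correlations of same-numbered deviations were −0.0446 to 0.109. Only the pairs within a genotype were positive (0.109 for WT-TN with WT-MP, 0.0769 for mCre-TN with mCre-MP). These values cannot decide whether replicate numbers pair the libraries. The replicate block moved no member's call. It gave 4036, 4145, 548, 617, 1446 and 18 genes for the 5 comparisons and the interaction, in the order of the report, each more than the main fit. Depth limits Ly6c1 and Ly6i, at 23 counts a library or fewer.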
